A study of Mus musculus with 4 samples.

Results

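Of the 10000 regions in the deposited table, 246 lay in or next to 90 genes of 14 families of kinases, phosphatases and phosphodiesterases. The members were chosen by gene label alone, as labels that start with Prkc, Prkg, Prka, Camk, Mapk, Map2k, Map3k, Map4k, Ptpr, Ptpn, Dusp, Dgk or Pik3, or with Pde and a digit. The families were protein kinase C (Prkc, 12 regions in 6 genes), cGMP-dependent kinase (Prkg, 17 in 2), protein kinase A and AMP-activated kinase (Prka, 11 in 6), calmodulin-dependent kinases (Camk, 12 in 6), the 4 tiers of the MAP kinase cascade (Map4k, 7 in 3; Map3k, 11 in 5; Map2k, 7 in 3; Mapk, 16 in 8), receptor tyrosine phosphatases (Ptpr, 73 in 15), non-receptor tyrosine phosphatases (Ptpn, 8 in 5), dual-specificity phosphatases (Dusp, 3 in 3), diacylglycerol kinases (Dgk, 10 in 5), phosphoinositide 3-kinases (Pik3, 9 in 7) and cyclic nucleotide phosphodiesterases (Pde, 50 in 16). The label rule also caught genes whose products are no active enzyme of these families. As such, 4 were left out as an alternative: Prkcsh, a glucosidase subunit, Pde4dip, an anchoring protein, Mapk8ip3, a scaffold, and Mapkap1, a subunit of the mTORC2 complex. Without them 238 regions remained, which still hold Pde6d, Ptprn and Ptprn2, whose products resemble or bind these enzymes.

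The study captured methylated DNA from 4 populations of CD4+ T cells of female Balb/c mice, with 1 library each. Naive cells were CD3+CD4+CD45RB_high. Th1 and Th17 cells were CD3+CD4+CD45RB_low and secreted IFNg but not IL17A (Th1) or IL17A but not IFNg (Th17), and regulatory T cells (Treg) were CD3+CD4+CD25++. All 4 came from spleen and lymph nodes. Stimulation lasted 3 h in PMA (10 ng/ml) plus ionomycin (500 ng/ml), after sorting for Treg and before it for the others, so no unstimulated cells were compared. The sources used here do not give how many mice were pooled or their age. Capture uses a methyl-CpG-binding protein, so the reads in a region rise both with its methylation and with the number of its CpG sites. Reads could be recovered as whole numbers in naive, Th1 and Treg. All 246 members, like all 10000 regions, were listed at 0 in Th17, and the authors' way of choosing regions is not stated in what was used here. The depth of the Th17 library could not be recovered, so no fold against Th17 is given. Captured DNA shows no expression, so the 4 cell type labels were not checked against marker genes.

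These families carry signals from the T cell surface inwards. Receptor engagement makes diacylglycerol and calcium, which act on protein kinase C and calmodulin-dependent kinases, and a cascade of MAP kinases passes the signal on by phosphorylation, tier by tier. PMA mimics diacylglycerol and so binds the protein kinase C isoforms that respond to it, and ionomycin lets calcium into the cell, which acts on calmodulin-dependent kinases through calmodulin. Phosphodiesterases break down cAMP and cGMP, the messengers that activate protein kinase A and cGMP-dependent kinase, and cAMP restrains T cell activation. Tyrosine and dual-specificity phosphatases remove the phosphates again. Methylation inside gene bodies is common in mammals, whereas CpG-rich promoters are mostly unmethylated.

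Promoters are where methylation is best known to accompany silencing, and 6 members were promoter regions. Their middles lay from -2039 to 399 bp from the gene start, of which 5 were upstream; a negative deposited offset was read as upstream because, for 54 of 54 such promoter regions whose gene also had intragenic regions, the latter all lay on the other side. The nearest to their starts were those of Camk1, a calmodulin-dependent kinase (edge 264 bp downstream of the start), and Ptprn, a phosphatase-like protein of secretory granules (edge 454 bp upstream). The sequences around the RefSeq starts of these genes are shown so that their CpG sites can be seen. They run from 250 bases before to 50 after the RefSeq start on the gene's own strand, in build GRCm38.p6, with CpG sites in capitals, and RefSeq gives 2 starts for Ptprn. Counted from the deposited gene start, the captured regions lie further off than these windows reach. Which Ptprn start that is was not checked, and mm9 positions were not converted, so no read is assigned to the letters shown.
Camk1 (chr6:113343873-113344172, minus strand): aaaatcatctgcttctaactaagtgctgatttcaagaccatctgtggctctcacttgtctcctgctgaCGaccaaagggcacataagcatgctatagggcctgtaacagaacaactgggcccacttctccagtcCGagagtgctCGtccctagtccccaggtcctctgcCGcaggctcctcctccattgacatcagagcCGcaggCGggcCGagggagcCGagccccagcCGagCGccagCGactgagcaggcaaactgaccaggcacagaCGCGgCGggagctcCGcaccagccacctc
Ptprn first start (chr1:75264159-75264458, minus strand): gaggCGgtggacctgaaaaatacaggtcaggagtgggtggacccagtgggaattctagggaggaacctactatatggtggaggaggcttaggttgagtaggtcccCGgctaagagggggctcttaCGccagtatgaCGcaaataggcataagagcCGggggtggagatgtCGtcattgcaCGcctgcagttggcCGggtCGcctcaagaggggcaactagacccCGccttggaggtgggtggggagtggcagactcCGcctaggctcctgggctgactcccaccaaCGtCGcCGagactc
Ptprn second start (chr1:75263722-75264021, minus strand): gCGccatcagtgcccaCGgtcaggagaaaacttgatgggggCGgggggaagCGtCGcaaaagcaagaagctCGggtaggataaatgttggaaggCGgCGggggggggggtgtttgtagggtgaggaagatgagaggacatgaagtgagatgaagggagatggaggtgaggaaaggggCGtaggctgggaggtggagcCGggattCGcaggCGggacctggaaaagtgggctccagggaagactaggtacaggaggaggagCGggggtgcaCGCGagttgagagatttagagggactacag
The Camk1 window holds 15 CpG sites, and the Ptprn windows 14 and 15, searched as CG, which reads the same on both strands. The median over 32851 RefSeq windows of the same length was 7, and 67.0% of them had 15 or fewer. The 120 windows available for 74 member genes had a median of 18 CpG sites. The 132 windows of 92 family genes that are not members had a median of 19. The captured regions themselves could not be marked or printed, as no mm9 sequence was used here.

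In the Camk1 region (mm9, chromosome 6, 113293444 to 113293714), 5 naive, 0 Th1 and 4 Treg reads were found. The Ptprn region (chromosome 1, 75261237 to 75261556) held 4, 1 and 12 in the same order. The promoter region of Pde4b, which breaks down cAMP in T cells (chromosome 4, 101759012 to 101759248), held 4, 0 and 13. Th1 was thus at 0 in 2 of the 6 promoter regions, against 60 of 477 over the table. Map2k3, an activator of p38 MAP kinases (chromosome 11, 60743651 to 60743880), held 2, 3 and 9 reads, and Map3k15 (chromosome X, 156424553 to 156424772) 3, 4 and 3. Pde6d, a carrier of prenylated proteins once named as a phosphodiesterase subunit (chromosome 1, 88481092 to 88481393), held 4, 3 and 2. The only region in a first exon belonged to Ptprt (chromosome 2, 161625727 to 161625979), with 4, 2 and 6 reads. Over all 6 promoter regions, naive reads ran from 2 to 5, Th1 reads from 0 to 4 and Treg reads from 2 to 13, and the summed Treg to naive log2 ratio was -0.53 (interval -1.31 to 0.28; all 477 promoter regions of the table -0.39).

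Introns held 220 of the 246 members, 89.4% (exact binomial interval 84.9 to 93.0), against 78.4% of the other 9754 regions. Exons held 20 members, 8.13% against 16.8%, and promoters 6, 2.44% against 4.83%. All regions of Prkc, Prka and Dgk genes were intronic. Ptpr had the most exonic regions, 5, but out of 73, whereas Map4k had 2 of 7 and Mapk 3 of 16. Among genes of like length, the interval of the members' intronic share held the share of the other regions in each of 5 length classes. In genes of 300 kb or more it was 94.3% of 123 member regions and 94.5% of 2311 others, and in genes of 50 to 100 kb 81.8% of 33 (interval 64.5 to 93.0) and 77.9% of 1514. In genes of 100 to 300 kb it was 92.8% of 69 (interval 83.9 to 97.6) and 87.0% of 2787. These lengths are those of RefSeq genes in GRCm38.p6, to which all 90 member labels matched by symbol.

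Member genes often had several regions. Of the 90, 48 had 2 or more, 53.3% against 36.1% of the 5377 genes of the table, and 32 had 3 or more. Prkg1 (ENSMUSG00000052920), a cGMP-dependent kinase of smooth muscle and neurons, had 13 intronic regions on chromosome 19 between 30791668 and 31777468. Ptprg, a receptor phosphatase with an extracellular carbonic anhydrase-like domain, had 11 over 629 kb of chromosome 14. Pde10a, a phosphodiesterase of both cyclic nucleotides best known from striatal neurons, and the receptor phosphatase genes Ptprd, Ptprm, Ptprn2 and Ptprt had 9 each. Camk1d, Map3k9, Mapk10, Pde4b, Pde4d and Ptpro had 6 each.

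**Figure D1:**
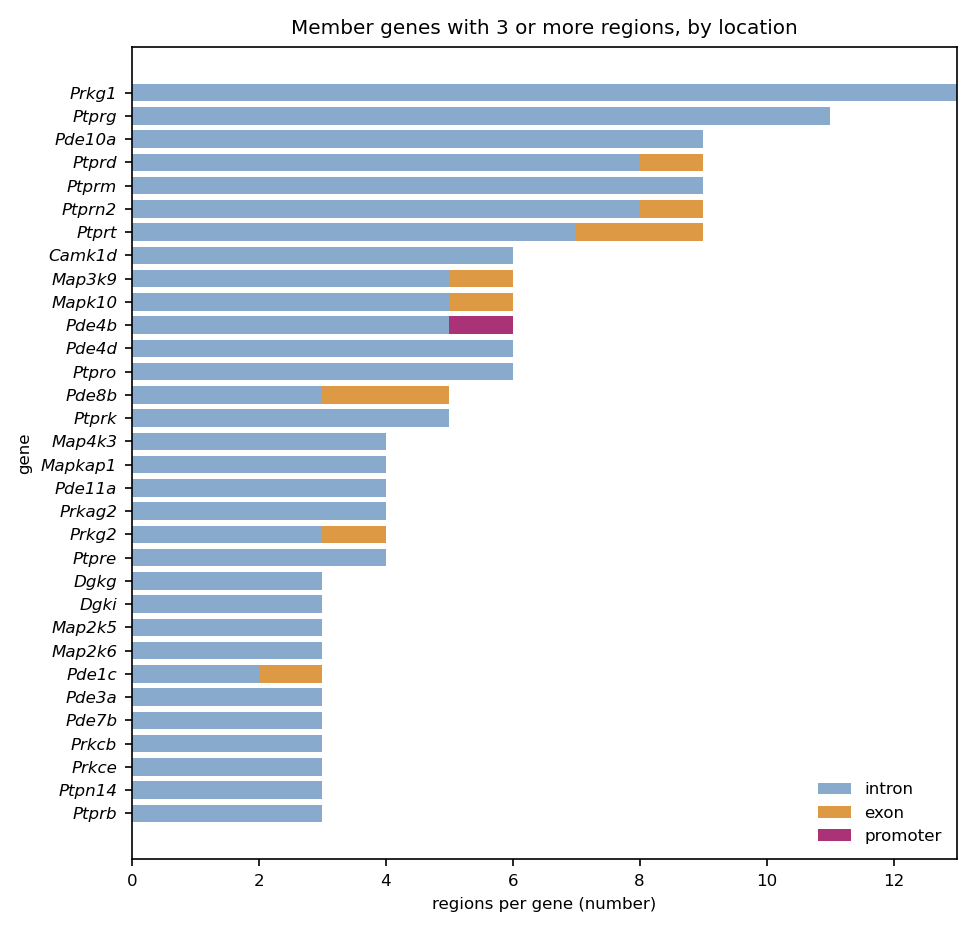
Number of regions (x axis) in each of the 32 member genes with 3 or more regions (y axis), split by intron, exon and promoter. Prkg1 leads with 13 regions, all intronic, and Pde4b is the only one of these genes with a promoter region.

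Longer genes had more regions. Of 207 protein-coding RefSeq genes whose present symbols fit the label rule, 93 had a region, 44.9% against 22.1% of all 21900 coding genes. Among these 93 are 3 genes that the table lists under other labels and that are not members: Map3k20 (B230120H23Rik), Map3k7cl (ORF63) and Camkmt (1700106N22Rik). Family genes with a region had a median length of 125 kb and those without one 25.3 kb. The rank correlation of length with number of regions was 0.65 across the 207 genes, a description of genes that share the same 3 libraries. Per megabase of gene, the families held 9.28 regions and all coding genes 8.82. Within length classes the family share was higher in each of the 5, and its interval held the share of other genes in each. Of family genes of 100 to 300 kb, 66.7% had a region (30 of 45) against 66.4% of other genes, and of those of 50 to 100 kb 44.7% (21 of 47) against 42.1%. From 20 to 50 kb it was 36.8% (14 of 38, interval 21.8 to 54.0) against 23.6%, under 20 kb 11.1% (6 of 54, interval 4.19 to 22.6) against 7.03%, and from 300 kb on 95.7% (22 of 23, interval 78.1 to 99.9) against 88.4%.

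**Figure D2:**
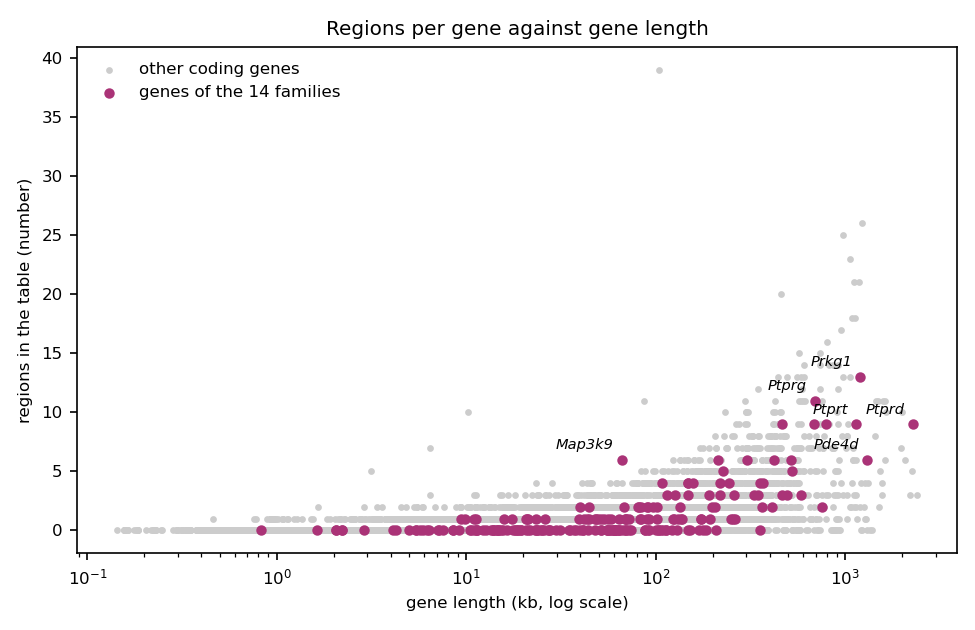
Regions in the table (y axis) against gene length in kb on a log scale (x axis) for coding genes, with the 207 genes of the 14 families in colour and all others in grey. Family genes lie within the cloud of other genes, and Map3k9 has 6 regions in a gene of 66.2 kb.

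The families differed in gene length. Dusp genes, which encode short enzymes that switch off MAP kinases, had a median length of 11.8 kb, and 3 of 24 had a region. Ptpr genes had a median of 151 kb, and 15 of 21 had one; Pde genes had 106 kb and 16 of 26. Map3k9, a mixed-lineage kinase upstream of JNK, was dense for its size, with 6 regions over 59.3 kb on chromosome 12. Pde4d, by contrast, had 6 over 1134 kb of chromosome 13 and Ptprd 9 over 1218 kb of chromosome 4.

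**Figure D3:**
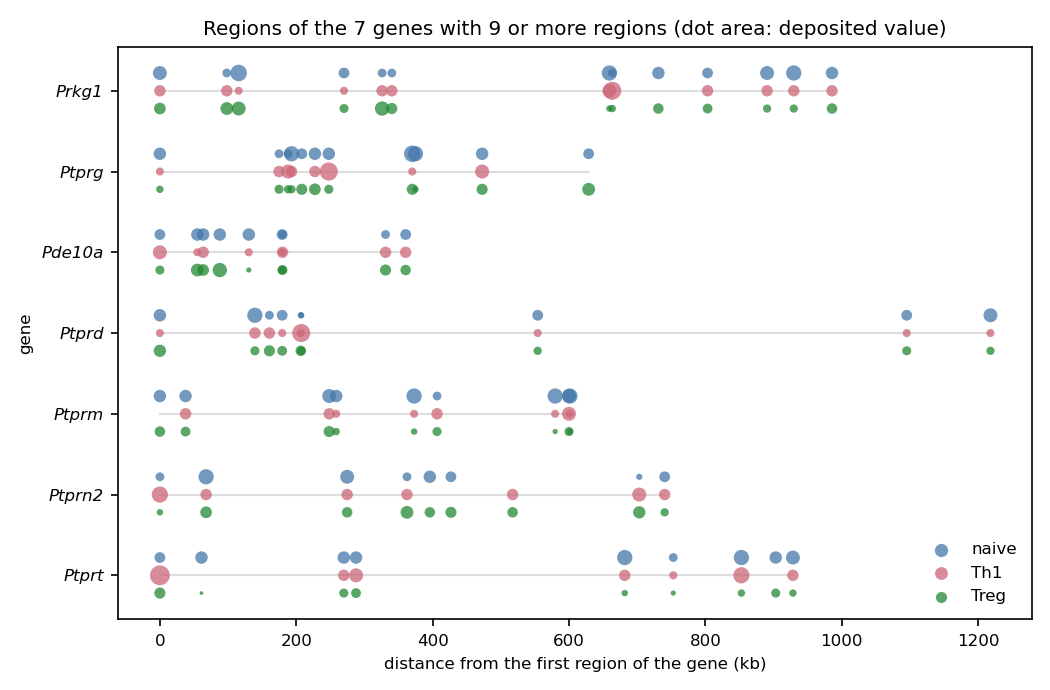
Position of each region as distance from the first region of its gene in kb (x axis) for the 7 genes with 9 or more regions (y axis), with 1 row of dots per library and dot area in proportion to the deposited value. Regions are spread over each gene, and pairs that lie close together, as in Ptprd, appear as overlapping dots.

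Most neighbouring regions of a gene lay far apart, and 8 pairs were within 1500 bp. The closest was in Prkag2, which encodes a regulatory subunit of AMP-activated kinase (chromosome 5, 24416356 to 24416594 and 24416791 to 24417052, 196 bp apart). Its first region held 7 naive, 1 Th1 and 2 Treg reads and its second 3, 1 and 9. The same held for Ptpre, a phosphatase found in haematopoietic cells among others (gap 217 bp), with 5, 1 and 2 reads in the first region and 4, 2 and 9 in the second. In both pairs the Treg count was 2 in the first region and 9 in the second, while the Th1 count stayed at 1 or 2. The Ptprd pair (gap 222 bp) held 1, 1 and 8 and then 1, 5 and 5. The pair in Pik3r3, a regulatory subunit of class I phosphoinositide 3-kinase (gap 282 bp), held 5, 1 and 9 and then 2, 2 and 5.

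Read depth set what could be seen. The members held 851 naive, 492 Th1 and 1810 Treg reads, with medians of 3, 2 and 7 per region, the same as over the whole table. 1 read was worth 0.996 deposited units in naive, 1.68 in Th1 and 0.352 in Treg. Of the 246 members, 30 had no Th1 read, 12.2% against 12.3% over the table; 3 had no naive read and 0 no Treg read. No population has a second library, so no difference could be set against a spread between replicates, and all intervals cover counting error only. A count of 0 was taken to allow up to 3 reads, a value of 2.99 in naive and 5.04 in Th1. The 2-sided Poisson limit of a 0 is higher, 3.67 in naive, so no fold of a single region is printed against a 0. The counts past 2-fold and the rankings of members given below do take in regions at 0.

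The mean deposited value of the members was 3.45 in naive (Poisson interval 3.22 to 3.69), 3.36 in Th1 (3.07 to 3.67) and 2.59 in Treg (2.48 to 2.72). Over all regions it was 3.41, 3.29 and 2.63. As a whole the families therefore stood where the table stood. The log2 ratio of summed values was -0.036 for Th1 to naive (interval -0.20 to 0.13; table -0.055), -0.41 for Treg to naive (-0.53 to -0.29; table -0.38) and -0.37 for Treg to Th1 (-0.52 to -0.23; table -0.32). The lower Treg level depends on the authors' scaling. At equal totals over the table for each library, the ratios were 0.020, -0.033 and -0.052, and with median-of-ratios scaling -0.069, -0.052 and 0.017. Treg was below naive in 11 of 14 families as deposited and in 7 under either scaling.

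**Figure D4:**
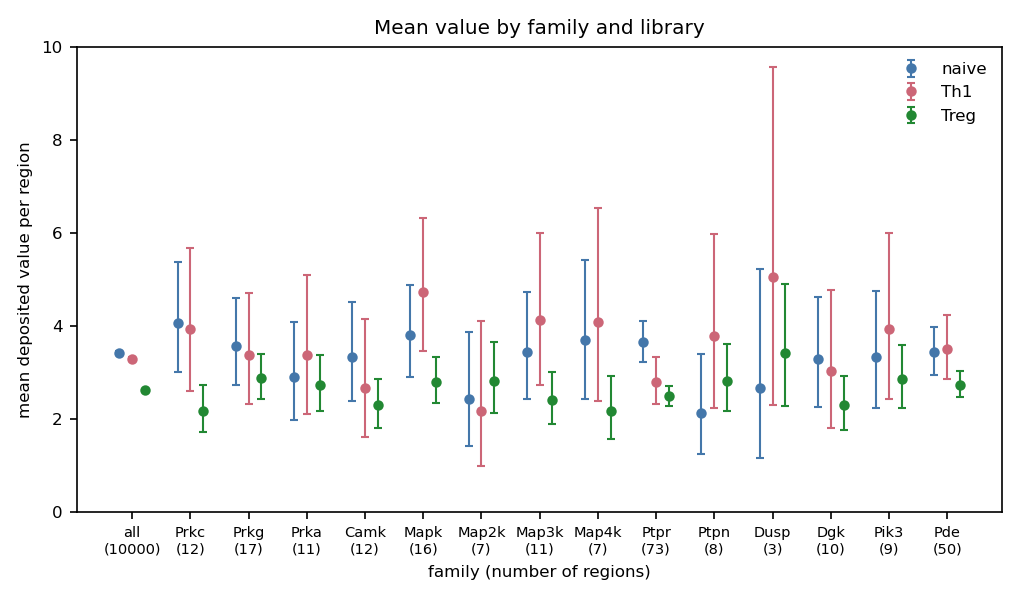
Mean deposited value per region (y axis) in naive, Th1 and Treg for all regions and for each of the 14 families (x axis, number of regions in parentheses), with exact Poisson intervals at 95%. Most family intervals overlap the table's level, and Ptpr is the family with the narrowest intervals after the table itself.

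Th1 cells were compared with naive cells first. A region was counted as past 2-fold when its log2 ratio, on values plus a pseudocount of 0.5, reached 1 in either direction. The pseudocount understates the change of low values. Regions at 0 were counted too, and some of them passed although the Poisson limit of the 0 allows no change. In all 114 members passed, 46.3% against 48.3% over the table. Of these, 43 were higher in Th1, 17.5% against 19.4%, and 71 were lower, 28.9% against 29%. The members' shares lay near those of the table in both directions. Map3k3, a kinase upstream of ERK5 and other MAP kinases (chromosome 11, 105962066 to 105962353), held 1 naive and 5 Th1 reads, a ratio of 8.44 (interval 0.944 to 399). The same counts were found in an intron of Camk2d, a calmodulin-dependent kinase II subunit, and in a Ptprd intron. Dusp3, a phosphatase of MAP kinases, had 0 naive reads, 2 Th1 and 12 Treg in exon 5 (chromosome 11, 101833872 to 101834078), and an intron of Prkg2, the second cGMP-dependent kinase, held the same 3 counts. An intron of Ptprn2 held 0, 2 and 8. At the other end, introns of Prkcb, a protein kinase C of B and T cells, and Ptprg held 6 naive reads and 0 Th1 reads, and introns of Ptpre and Camk2b and the Camk1 promoter 5 and 0.

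The reads were also set against each other by an exact binomial test, which speaks of these libraries rather than of the populations. It called 0 of the 10000 regions after Benjamini-Hochberg adjustment over the table. At an unadjusted p under 0.05, 3 members were higher in Th1, against 1.37% of the table, and 0 lower, against 0.16%. Lower regions could hardly be called at this depth. By the same test the Camk1 promoter, with 5 naive and 0 Th1 reads, had an unadjusted p of 0.165. The Ptpr family as a whole had 267 naive and 121 Th1 reads, a log2 ratio of -0.39 (interval -0.71 to -0.07), and it was the only one of the 14 whose interval left out the table's -0.055; no adjustment for 14 families was made. Its mean values were 3.64 in naive (3.22 to 4.11) and 2.79 in Th1 (2.31 to 3.33), and 12 of its 73 regions had no Th1 read. At equal table totals the ratio was -0.33.

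Treg cells shared the naive library with the comparison above. In all 70 members were past 2-fold, 28.5% against 30.5% over the table. Of these, 16 were higher in Treg, 6.5% against 8.33%, and 54 were lower, 22% against 22.2%. With equal table totals the split was 27 higher and 35 lower, against 1518 higher and 1233 lower of all 10000 regions. With median-of-ratios scaling it was 27 and 37, against 1518 and 1310. These scalings moved the median log2 ratio of all regions from -0.29 to 0.043 and 0.026. The members furthest down were an intron of Pde7b, a cAMP phosphodiesterase (chromosome 10, 20373745 to 20373953), with 6 naive and 1 Treg read, and the Prkag2 intron named above, with 7 and 2. The naive value of Pde7b was 17.0 times that in Treg (interval 2.06 to 780.0) and that of Prkag2 9.89 times (1.88 to 97.6). By the exact binomial test both had an adjusted p of 0.275, and 0 members passed; 1 region of the table did, 0.01%. At an unadjusted p under 0.05 the test counted 27 members lower in Treg, 11% against 8.08% over the table, and 2 higher, 0.813% against 0.32%. Higher regions were harder to call by this test, as a Map2k6 intron with 16 Treg reads and 1 naive read had an unadjusted p of 0.092. Introns of Ptprk, Ptprm and Ptprb, all receptor phosphatases, held 6 naive and 2 Treg reads each.

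On the higher side, an intron of Map2k6, an activator of p38 MAP kinases (chromosome 11, 110264013 to 110264360), had 16 Treg reads beside 1 naive and 0 Th1, the highest Treg count of any member. Its Treg value was 5.66 times the naive value (interval 0.880 to 237). The other 2 Map2k6 regions held 5 and 3 naive and 6 and 4 Treg reads, so the gene's sums gave a log2 ratio of 0.032 (-1.11 to 1.31). Ptprq, a receptor phosphatase of hair cells, held 1, 1 and 14 reads in an intron (chromosome 10, 107025229 to 107025475). The Prkg2, Dusp3 and Ptprn2 regions with no naive read were the others at this end.

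Summed over all regions of a gene, the reads gave a steadier view. Of the 32 genes with 3 or more regions, 29 had an interval for Treg to naive that held the table's -0.38, and no adjustment for 32 genes was made. The exceptions were all tyrosine phosphatases, and they lay on both sides of the table's value. Ptprg, Ptprd, Ptprn2, Ptpro, Ptprk, Ptpre and Ptprb, also Ptpr genes, were among the 29. The same count was not made for other genes of the table. Ptprm, an adhesion receptor of endothelial and neural cells, had 42 naive, 13 Th1 and 48 Treg reads over 9 introns of chromosome 17. Its regions held 2 to 6 naive, 0 to 3 Th1 and 2 to 9 Treg reads, with mean values of 4.65, 2.43 and 1.88 and a log2 ratio of -1.31 (-1.93 to -0.67). Ptprt, a related receptor best known in brain, had 38, 20 and 42 reads over 9 regions of chromosome 2, mean values of 4.21, 3.74 and 1.64, and a ratio of -1.35 (-2.02 to -0.68). Its regions held 2 to 6 naive, 0 to 6 Th1 and 1 to 9 Treg reads. Both genes lay below the table, and with equal table totals their ratios were -0.93 and -0.98. Ptpn14, a cytoplasmic phosphatase of the Hippo pathway, lay above it with 4 naive, 8 Th1 and 26 Treg reads over 3 introns and a ratio of 1.20 (-0.33 to 3.18), which rests on 4 naive reads. The interval of Ptpn14 lay above the table's value but, as deposited, held 0. With equal table totals its ratio was 1.58 (0.052 to 3.56) and with median-of-ratios scaling 1.56 (0.032 to 3.54), from the same 4 naive reads. Next to these came Map3k9 at -1.06 (-1.84 to -0.25), Prkcb at -1.04 (-2.03 to -0.01) and Ptprg at -0.71 (-1.25 to -0.14), whose intervals held the table's value.

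**Figure D5:**
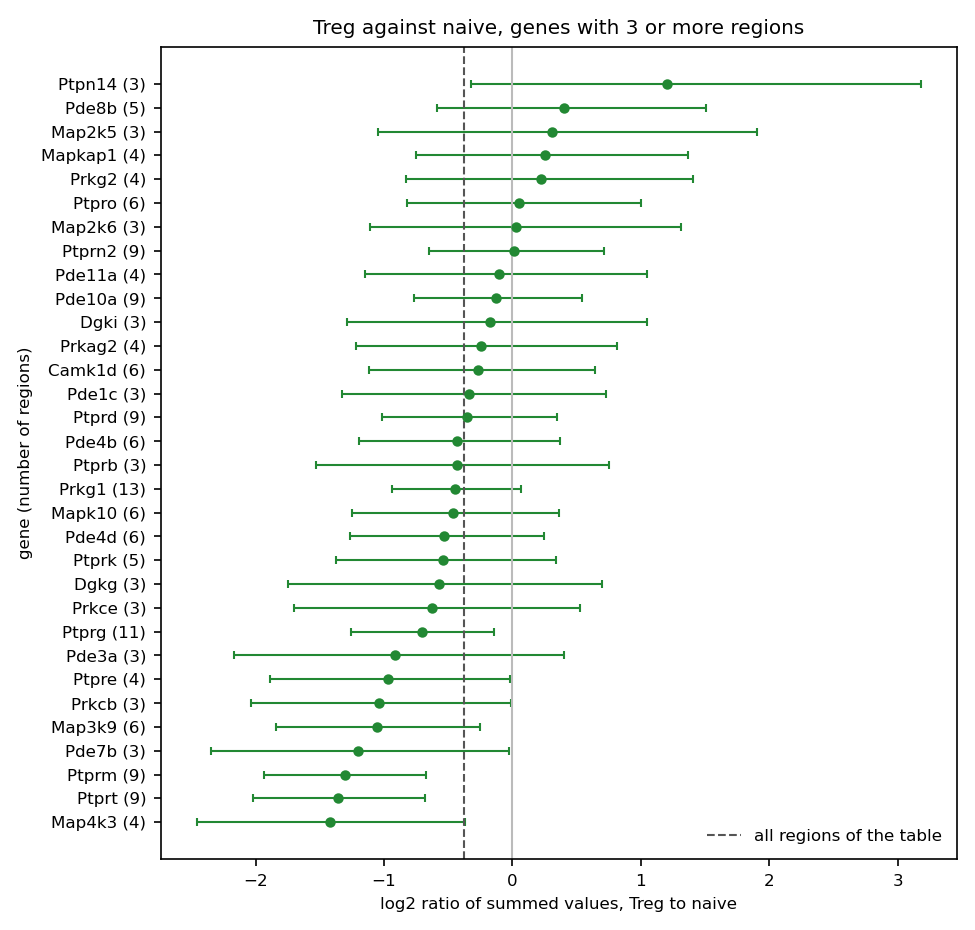
Log2 ratio of summed values, Treg to naive (x axis), for the 32 genes with 3 or more regions (y axis, number of regions in parentheses), with exact intervals at 95% for counting error. The dashed line is the ratio over all regions, -0.38; the intervals of Ptprm, Ptprt and Ptpn14 do not cross it.

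Ptprm and Ptprt belong to the same structural group of adhesion phosphatases, with Ptprk and Ptpru. Over the 24 regions of all 4 the mean value was 4.19 in naive (3.41 to 5.09), 2.94 in Th1 (2.12 to 3.98) and 2.04 in Treg (1.72 to 2.41). The Treg to naive ratio was -1.04 (-1.42 to -0.65), and -0.66 at equal table totals. This group was singled out after its values were seen, and Ptprm and Ptprt give 18 of its 24 regions. Ptprk alone had a ratio of -0.54 (-1.37 to 0.34). The other receptor groups spread on both sides of the table's -0.38. Ptpre, the only gene of its group with a region, had a ratio of -0.97 (-1.89 to -0.015). Ptprg, also the only one of its group with a region, had -0.71 (-1.25 to -0.14) and Ptprr -0.69 (-2.67 to 1.53). The intervals of all 3 overlap that of the Ptprm group. Whether the groups differ was not tested. Ptprn and Ptprn2 together had means of 2.99, 3.03 and 3.03 over 10 regions, and the ratio was 0.020. Ptprd, Ptprf and Ptprs, receptors of synapse formation, had -0.31 over 12 regions, and Ptprb, Ptpro and Ptprq 0.070 over 11. Single genes of these groups had 28 naive, 15 Th1 and 62 Treg reads in Ptprd, 26, 17 and 74 in Ptprn2, 15, 10 and 44 in Ptpro, 11, 3 and 23 in Ptprb and 45, 19 and 78 in Ptprg. Ptpre had 18, 4 and 26 over 4 introns, and its Th1 to naive ratio of -1.42 (-3.44 to 0.19) was the lowest of the 32 genes.

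Treg and Th1 cells, whose libraries both appear above, were past 2-fold apart in 79 members, 32.1% against 38% over the table. Of these, 35 were higher in Treg, 14.2% against 17%, and 44 lower, 17.9% against 21%. With equal table totals the split was 47 higher and 34 lower, against 2261 higher and 1522 lower of all 10000 regions. With median-of-ratios scaling it was 47 and 32, against 2274 and 1222. The median log2 ratio of all regions moved from -0.22 to 0.060 and 0.12. The members lowest in Treg were a Mapk10 intron (4 Th1 and 2 Treg reads) and introns of Pde11a, a phosphodiesterase of both cyclic nucleotides, Pik3r4, a subunit of the class III phosphoinositide 3-kinase of autophagy, and Prkar2a, a regulatory subunit of protein kinase A, each with 6 and 4. For these 3 the Th1 value was 7.15 times the Treg value (interval 1.70 to 34.5). A Prkg1 intron with 5 and 4 reads followed. At the top stood regions with no Th1 read: the Map2k6 intron with 16 Treg reads, a Pde10a intron with 15, the Pde4b promoter with 13 and introns of Ptprb and Ptprg with 12. The exact binomial test called 0 members and 0 regions of the table after adjustment. Unadjusted, it counted 24 members lower in Treg, 9.76% against 5.01% over the table, and 0 higher, as in the table. Higher regions could hardly be called by this test, as the Map2k6 intron with 16 Treg and 0 Th1 reads had an unadjusted p of 0.092. Of the 32 genes with 3 or more regions, Ptprt alone had an interval below the table's -0.32, at a ratio of -1.18 (-1.98 to -0.34). Among genes with fewer regions, Pik3r4 at -1.84 (-3.21 to -0.41, 2 regions) and Prkar2a at -2.84 (-5.11 to -0.76, 1 region) also lay below it. Against naive, Ptpn9 (2 regions) lay above the table's value, at 2.56 (0.17 to 5.86) for Th1 and 1.75 (-0.30 to 4.90) for Treg. Dusp3 (1 region, 0 naive reads) also lay above it for Treg to naive. No adjustment for the number of genes was made.

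By role, the second-messenger enzymes are given first. Phosphodiesterases of cAMP (Pde4b, Pde4d, Pde7b and Pde8b, 20 regions) had mean values of 3.49 in naive, 3.28 in Th1 and 2.64 in Treg. Those of both nucleotides (22 regions in 6 genes) had 3.31, 3.21 and 2.71, and the cGMP group (6 regions in 5 genes, Pde6d among them) 3.49, 5.04 (2.99 to 7.97) and 3.05, where the table's Th1 mean was 3.29. Among single genes, Pde10a had 29 naive, 14 Th1 and 75 Treg reads, Pde4d 24, 13 and 47, Pde4b 22, 8 and 46, Pde8b 11, 13 and 41, Pde11a 11, 11 and 29, Pde1c 13, 4 and 29, Pde7b 13, 5 and 16 and Pde3a 10, 6 and 15. By mean value, which allows for depth, Pde8b (4.37 in Th1, 2.19 in naive) and Pde11a (4.62 and 2.74) were higher in Th1. The intervals of both log2 ratios held 0. Pde3a was nearly level (3.36 and 3.32), and the others of these 8 were lower in Th1. Pde3b, a phosphodiesterase of insulin signalling, had 2, 3 and 8 in an intron. The member with the most reads of all was a Pde6a intron, a gene of rod photoreceptors, with 5, 6 and 12. Diacylglycerol kinases, which remove the activator of protein kinase C, had 3.29, 3.03 and 2.29 over 10 regions in Dgkb, Dgkd, Dgkg, Dgkh and Dgki. Dgkg had 10, 3 and 19 reads and Dgki 10, 7 and 25, both in 3 introns. The lymphocyte enzymes Dgka and Dgkz had no region. Class I phosphoinositide 3-kinase catalytic genes had 3 regions: Pik3ca in exon 3 (3, 4 and 10 reads), Pik3cb in an intron (3, 1 and 8) and Pik3cd, the leukocyte form, in an intron (3, 3 and 9).

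Among the kinases that these messengers drive, Prkc had the lowest Treg to naive ratio of any family, -0.90 (-1.44 to -0.35), an interval that held the table's value. The highest of the 14 was that of Ptpn, 0.41 (-0.376 to 1.28), from 17 naive, 18 Th1 and 64 Treg reads. Its interval began just above the table's -0.378 and was the only family interval in this comparison to leave it out. Of the family's reads, Ptpn14 held 4 naive and 26 Treg and Ptpn9 2 and 19. The ratios of Ptpn1 (-0.039), Ptpn13 (-0.50) and Ptpn5 (-2.50) were below 0, with intervals that held 0. Prkcb had 16 naive, 4 Th1 and 22 Treg reads in 3 introns, and Prkce, another isoform, had 12, 10 and 22 in 3. Prkcz, an atypical isoform that needs no diacylglycerol, had 7, 4 and 4 in 2. Prkcq, the isoform at the T cell synapse, had no region. Prkca had 4, 1 and 9 and then 3, 4 and 4 reads in 2 introns, and Prkch 3, 5 and 9 in 1. Prkg1 had mean values of 3.91, 3.36 and 2.87 over its 13 regions, and its richest region (chromosome 19, 30907202 to 30907537) held 7, 1 and 14 reads. Its other regions held 2 to 6 naive, 0 to 5 Th1 and 3 to 15 Treg reads. Prkg2 had 10, 8 and 33 over 4 regions, and the 4 introns of Prkag2 had 13, 5 and 31. The catalytic subunits of protein kinase A, Prkaca and Prkacb, had 1 intronic region each, with 2, 5 and 10 and with 2, 3 and 7 reads. Camk4, a calcium-dependent kinase of T cells and neurons, had 5, 1 and 3 reads in an intron. Camkk1, which activates Camk1 and Camk4, had 4, 4 and 10, and the 6 introns of Camk1d had 17, 7 and 40.

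Along the MAP kinase cascade, the upper-tier genes of the T cell signalling list with a region were Map4k3 (4 introns), Map4k4 (1), Map3k14, the NF-kappaB-inducing kinase (1), and Map3k3 (1, described above). Map4k4 had 2, 3 and 7 reads and Map3k14 5, 1 and 7. Map4k3 had 17 naive, 9 Th1 and 18 Treg reads, with a Treg to naive ratio of -1.42 (-2.46 to -0.37), the lowest of the 32 genes. Its interval ended just above the table's value. Map2k5, which activates ERK5, had 3 introns with 2 naive and 1 Th1 read each and 6, 6 and 9 Treg reads. Mapk10, the JNK gene expressed mainly in brain, had 21, 18 and 43 reads over 6 regions. Map3k9 had 25, 13 and 34, and its richest intron, at 82854772 on chromosome 12, held 8, 2 and 10. Mapkap1, the mTORC2 subunit caught by its label, had 11, 9 and 37 over 4 introns. The richest Mapk region was exon 2 of Mapkapk2, a kinase downstream of p38 (chromosome 1, 132955160 to 132955431), with 5, 5 and 10 reads. Dusp22, a phosphatase that restrains T cell receptor signalling, had an intron with 5, 5 and 7 reads, and Dusp14 one with 3, 2 and 10. Ptpn1 had one with 4, 2 and 11 and Ptpn13 one with 3, 0 and 6.

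Of a list of 73 family genes with roles in T cell signalling, 25 had a region, 34.2% against 44.9% of the 207 family genes. They had 46 regions in all, of which 43 were intronic, 1 exonic and 2 in promoters. The listed genes had a median length of 60.9 kb, against 59.1 kb for the 207 and 17.1 kb for all coding genes. Per megabase of gene the list held 5.79 regions and the 207 genes 9.28, a difference that was not tested. The mean values were 3.53 in naive (3.01 to 4.12), 3.91 in Th1 (3.20 to 4.72) and 2.53 in Treg (2.26 to 2.82). The genes of the phosphatases Ptprc (CD45), Ptpn6 (SHP-1), Ptpn22 and Ptpn2 and of the kinases Map4k1 and Mapk14 were among the 48 with none. As the choice of regions is not known, a missing gene says nothing of its methylation. Of 34 family genes known mainly from neurons, retina or muscle, 20 had a region, 58.8%, with 96 regions and mean values of 3.50, 3.20 and 2.66. Those 20 had a median length of 333 kb and the other 14 of 25.5 kb. Prkacb is in both lists.

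Exonic and intronic members had Treg intervals that did not overlap. The 20 exonic members held 6 to 12 Treg reads each and the 220 intronic ones 1 to 16, with mean values of 3.22 (2.77 to 3.73) and 2.54 (2.41 to 2.67). Over the table the values were 2.88 in exons (2.83 to 2.93) and 2.57 in introns (2.55 to 2.59), intervals that did not overlap either. In naive the order was the other way, 3.09 in exonic and 3.47 in intronic members, with 3.28 and 3.43 over the table. Among the exonic members were exon 7 of Pde6b, a rod phosphodiesterase gene (3, 2 and 12 reads), exon 6 of Ptprn2 (2, 2 and 12), exon 15 of Pik3c3, the class III lipid kinase (3, 1 and 10), and exons 12 and 25 of Map4k5 (4, 2 and 9 and 3, 3 and 9). Exon 23 of Ptprt held 3, 6 and 9.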

How the data were processed

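Per the labels' protocols, libraries used 250 ng of precipitate and a gel band of 250 to 350 bp, 1 library for each of 4 sorted populations. FastQC, Bowtie 0.12.7 and mm9 are named in the submitters' processing notes. How regions were called, scaled and selected is not stated. The deposited table gives a signal per region and library, with coordinates in mm9, printed as deposited. Dividing each of the naive, Th1 and Treg columns by its own constant gave whole reads for 100% of values (relative tolerance 1e-06). Ratios used a pseudocount of 0.5 on deposited values and a log2 threshold of 1; Poisson intervals, and Clopper-Pearson intervals for shares and for ratios of reads, are at 95%. Exact binomial tests were 2-sided with Benjamini-Hochberg adjustment over 10000 regions (Python 3.11.15, scipy 1.17.1), tested on simulated data.

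Named were genes with 3 or more regions, promoter and exon 1 regions, the region with most reads per family, the 5 most extreme members per direction and pair, and members of the T cell signalling list, in full or as counts; others, such as exonic regions and phosphatase groups, were chosen after their values were seen. The members and lists were chosen with earlier results of these data known. Gene lengths and promoter sequences are RefSeq's for GRCm38.p6; 0 per-sample columns were left unmapped. Alternatives were 2 thresholds, a pseudocount of 5, 2 scalings, a read filter, the exact test, enzyme genes only, 1 region per gene, merged regions and leaving out Prkg1.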

Additional observations from a re-analysis of the deposited data

How the results depend on the processing

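The number, location and multiplicity of the member regions kept within 1.5 times, or within the interval, under enzyme genes only, merging within 1 kb and a minimum of 10 reads. Counts past 2-fold moved with the rule. At a log2 threshold of 1.5, 67 of 246 members passed for Th1 against naive in place of 114. Of all 10000 regions, 965 were higher and 1532 lower. For Treg against naive 45 members passed in place of 70, against 405 higher and 1211 lower over the table. At 1.5-fold, 120 passed for Treg against naive in place of 70, against 1607 higher and 3918 lower over the table. For Treg against Th1 133 passed in place of 79, against 2627 and 3517. With a pseudocount of 5, 7 members passed for Th1 against naive, against 191 higher and 221 lower over the table. For Treg against naive 2 passed (6 and 73 over the table) and for Treg against Th1 8 (18 and 171). The exact binomial test, adjusted over the table, called 0 members in each comparison, against 0, 1 and 0 regions of the table in the same order. Of the 203 members with 10 or more reads, 45 passed for Treg against naive, and the table's share under this filter was not computed.

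The summed Treg to naive ratio of -0.41 became -0.052 with median-of-ratios scaling, -0.033 with equal table totals and -0.13 with 1 region per gene, that with the most reads. The Th1 to naive ratio of -0.036 became 0.17 with 1 region per gene. The Treg to Th1 ratio of -0.37 became -0.052 with equal table totals and reversed to 0.017 with median-of-ratios scaling. In all, 31 of 48 alternatives were counted as leaving a result as it was, 16 as moving it and 1 as reversing it. For counts past 2-fold this tally took the total only, not the split by direction. For Treg against Th1 the split of 35 higher and 44 lower turned to 47 and 34 with equal table totals. With median-of-ratios scaling it turned to 47 and 32, and both were tallied as unchanged. Apart from scaling, rule and choice of region, the cause was not tested. With medians of 3, 2 and 7 reads per region, depth limits every single region. No paired analysis was possible because each population has 1 library.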
